A study of Arabidopsis thaliana with 6 samples.

Results

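A set of 108 genes had a mean array intensity above 150 in NOT1+/- pollen and below 20 in wild-type pollen, out of 27827 features on the array. Of the features, 20325 had a wild-type mean below 20, so the set was 0.531% of them. The set was chosen from the measured difference itself. Every level and fold change below therefore describes the genes that were chosen, and none is tested. NOT1+/- pollen came from plants heterozygous for a NOT1 mutation (3 samples), and the comparison was with wild-type pollen (3 samples), all of ecotype Columbia 0. The samples are labelled as biological replicates. Each sample held about 300000 intact grains purified by flow sorting from open flowers, and 100 ng of its total RNA went onto an Affymetrix strip array read in 1 colour. Sister grains of a heterozygous plant inherit either the mutant or the normal allele, so a NOT1+/- sample mixes both kinds. The labels do not give the type of mutation.

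NOT1 is the scaffold on which the CCR4-NOT complex is built. The complex removes the poly(A) tails of messenger RNAs, which slows their translation and opens the way to their decay. A mature Arabidopsis pollen grain holds a pair of sperm cells inside a vegetative cell, which stores transcripts and proteins for the growth of the pollen tube. Tube growth relies on secretion, on transport of ions, sugars and amino acids, on remodelling of a pectin-rich wall and on secreted cysteine-rich peptides that take part in talk between tube and pistil. In a bulk sample of grains, fewer grains that carry a transcript and less transcript per grain cannot be told apart.

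The labels were checked first. The NOT1 gene itself, AT1G02080, had intensities of 28.6, 31.8 and 32.6 on the NOT1+/- arrays, against 47.6, 51.0 and 46.9 on the wild-type arrays (a log2 difference of -0.65 with an SE of 0.15; adjusted p = 0.029 in limma). Leaving out 1 array at a time gave limma adjusted p from 0.053 to 0.118, so the call rests on all 6. The 19 marker genes of the vegetative cell summed to between 25460 and 26368 on NOT1+/- arrays, against 23974 to 24847 on wild-type arrays. Limma called 7 of them higher and 0 lower, beside 8.84% and 3.22% of all features. Their median log2 fold change was -0.02, and their median level was 1171 in NOT1+/- and 1253 in wild type. All 8 photosynthesis markers had wild-type means below 20, as did 13 of 16 tapetum and pollen coat markers, 7 of 9 floral organ markers and 9 of 10 seed and embryo markers. Their summed intensities were 53.7 to 70.1, 183 to 212, 98.7 to 136 and 165 to 171 in NOT1+/- pollen, against 82.9 to 93.4, 218 to 223, 119 to 123 and 120 to 131 in wild-type pollen. Limma called 2 photosynthesis, 2 tapetum and 1 floral marker lower and 1 seed marker higher. Of the vegetative cell markers, 0 had a wild-type mean below 20, and of the 8 sperm cell markers 3 did. The 8 sperm cell markers summed to 1402, 1404 and 1837 on NOT1+/- arrays 1, 2 and 3, against 1186 to 1275 on wild-type arrays, and 5 of them were called higher, beside 8.84% of all features. No member of the set is on any of these marker lists. The part of the vegetative cell, sperm and seed markers in the results below was not tested.

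Within the set, NOT1+/- means ran from 150.4 to 1933 with a median of 248, and wild-type means ran from 5.40 to 19.8 with a median of 13.7. The median log2 fold change was 4.35, or 20.4-fold, and single genes lay between 3.00 and 7.39, beside a median of -0.10 over all features. With 16 units added to each intensity before log2 the median was 3.19, so the size of the fold depends on the treatment of low values. On each of the 108 genes the lowest NOT1+/- array stood above the highest wild-type array, by a factor of 4.38 to 128. Over all features, 14.9% had 3 NOT1+/- values above all 3 wild-type values. Limma called all 108 higher at an adjusted p under 0.05, as it did 8.84% of all features and 6.53% of the features dim in wild type. The rule used the same contrast, so nothing is read from either count. Wild-type levels of 51 members lay below 12.8, the mean of the wild-type array medians. The median is not a detection limit, and without detection calls no wild-type level of the set, up to 19.8, can be told from background. The folds of all 108 genes are therefore uncertain in size. Intensities of different features are also not amounts that can be set against each other, because their probes differ.

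The opposite pattern was not seen at the same limits. Among 19855 features with a NOT1+/- mean below 20, 0 had a wild-type mean above 150, 0 had one above 100 and 3 had one above 50, and the highest was 58.1. The 95th percentile of intensity was 133 to 141 on wild-type arrays and 193 to 202 on NOT1+/- arrays. A limit of 150 was therefore stricter in wild type, and no count after rescaling is given here. Among the 20325 features dim in wild type, 1623 had a NOT1+/- mean above 20, 401 above 50 and 189 above 100. The thresholds cut through a continuum. Just outside the wild-type limit were AT5G46990, with a NOT1+/- mean of 778 and a wild-type mean of 20.1, and ATCHX13, with 199 and 20.5. Just inside it were LOS1, with 167 and 19.8, and AT1G66360, with 978 and 19.8. Just under the NOT1+/- limit were AT3G51075 and AT5G42570, both at 147, with wild-type means of 12.6 and 17.8. Just above it were AT4G05160, at 150.4 against 16.98, and YSL7, at 151 against 8.29.

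**Figure D1:**
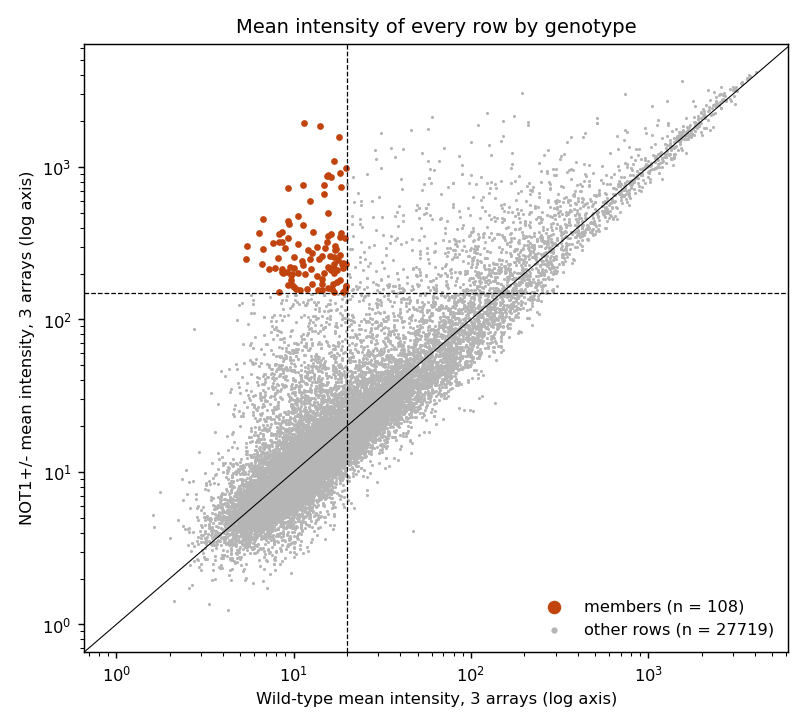
Mean intensity of each of 27827 features in NOT1+/- pollen (vertical) and wild-type pollen (horizontal), both on log axes and over 3 arrays. Red points are the 108 genes above 150 in NOT1+/- and below 20 in wild type (dashed lines), and the diagonal marks equal means. The mirrored corner, above 150 in wild type and below 20 in NOT1+/-, holds 0 features.

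The gene table used for names gave a symbol or a named synonym to 52 of the 108 genes, and all 108 are protein-coding there. Grouped by what their names say, 9 encode secreted peptides, 9 membrane transport or channel proteins, 7 proteins of folding and export at the endoplasmic reticulum (ER), 4 redox enzymes, 5 cell wall proteins and 7 proteins of the nucleus, RNA handling or translation, while 11 have other names. The other 56 are known here by locus code alone. These groups were formed after the values were seen and serve as an order of description.

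The secreted peptides had a median log2 fold change of 5.46 (range 4.18 to 7.04). LCR25, a small secreted peptide rich in cysteine and related to defensins, had intensities of 2030, 1902 and 1641 in NOT1+/- pollen, against 13.2, 14.8 and 14.1 in wild-type pollen. The arrays of each genotype lay close together and more than 100-fold apart from those of the other. LCR33, of the same family, had 693, 694 and 598 in NOT1+/- and 12.8, 15.7 and 16.1 in wild type. SCRL25 is named for its likeness to SCR, the pollen ligand of self-incompatibility in related crucifers. It had 829, 763 and 639 in NOT1+/- and 14.2, 20.7 and 20.9 in wild type. SCRL23 had 385, 377 and 368 in NOT1+/-, against 9.87, 8.75 and 7.23 in wild type, an unusually tight set. SCRL12, SCRL19 and SCRL27 completed the SCRL members. Over SCRL12, SCRL19, SCRL23 and SCRL27, single arrays ran from 133 to 385 in NOT1+/- and from 3.49 to 19.3 in wild type, and the folds from 18.1 to 58.5. RALFL20 and RALFL17 belong to the RALF peptides, which signal through receptor kinases of the cell surface. RALFL20 had 455, 389 and 430 in NOT1+/-, against 9.89, 9.08 and 9.41 in wild type (44.8-fold). RALFL17 had 363, 296 and 237 in NOT1+/-, against 11.6, 13.0 and 16.1 in wild type (21.85-fold).

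**Figure D2:**
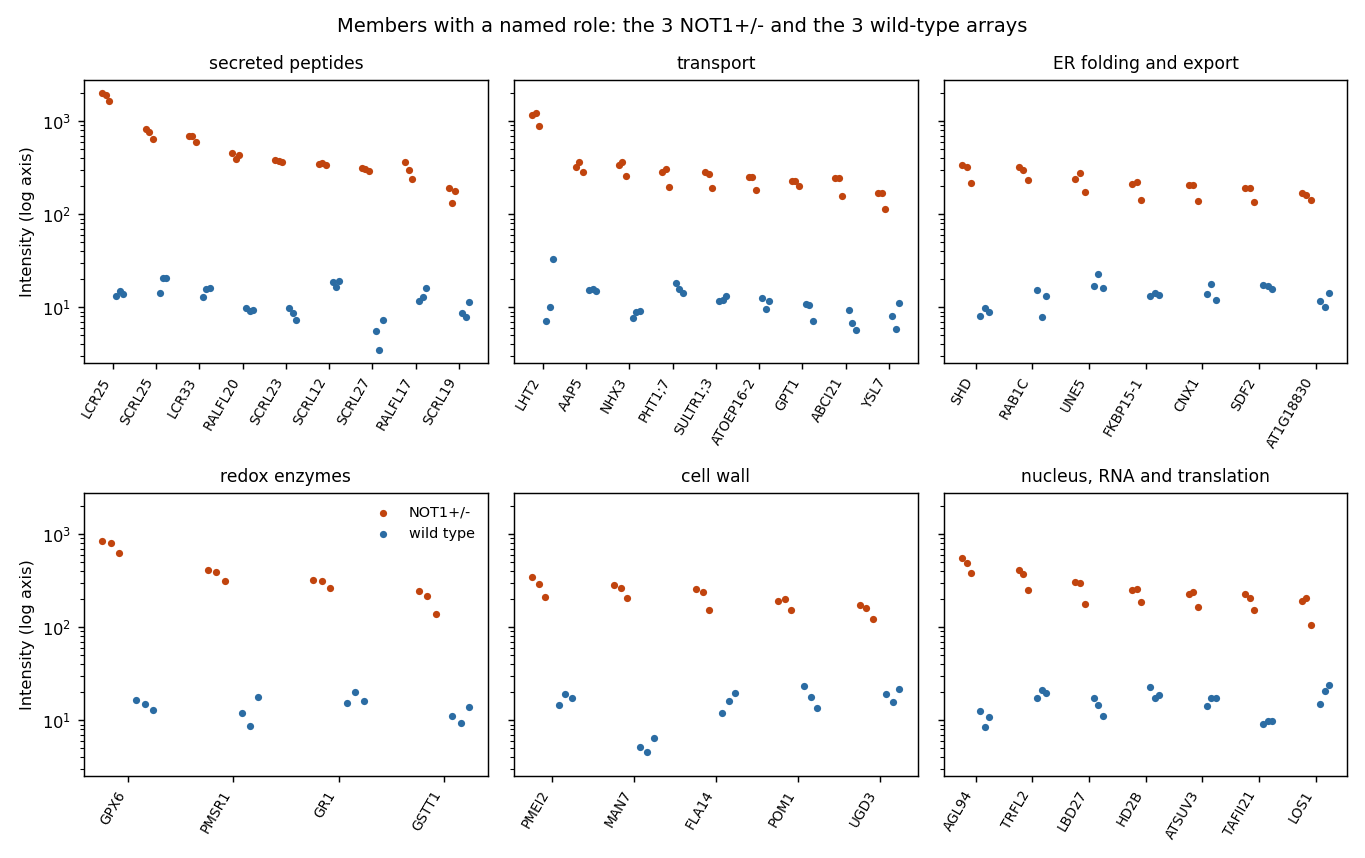
Intensity of the 41 members with a named role in 6 groups, on a log axis. Red points are NOT1+/- replicates 1, 2 and 3 from left to right, blue points are wild-type replicates 1, 2 and 3, and in every gene all red points lie above all blue ones.

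Relatives of these peptides outside the set did not all behave alike. The array measured 111 genes named LCR or SCRL, and 26 rose, 1 fell and 84 did not pass the test, so 23.4% rose beside 8.84% of all features. After quantile normalization 26 were higher and 3 lower. The 26 include the 7 members, which the rule chose for their rise. Of the 104 outside the set, 19 rose. Some of these had a clear wild-type signal: LCR17 had 3048 ± 71.7 in NOT1+/- and 194 ± 13.4 in wild type (SD, n = 3 arrays each; limma adjusted p = 4.85e-06), and LCR11 had 1570 ± 121 and 364 ± 15.3. Most of the family, 91 of 111, had a wild-type mean below 20. Among 33 RALF genes 3 rose (9.09%, beside 8.84% of all features), 2 fell and 28 did not pass. Of the 3 that rose, 2 were members. After centring on the 75th percentile 3 were higher and 4 lower. Outside the set RALFL30 alone rose (545 ± 52.3 in NOT1+/-, 164 ± 17.9 in wild type, limma adjusted p = 3.38e-04). RALFL15, RALFL9 and RALFL8 had NOT1+/- means of 4218, 3844 and 3767, against wild-type means of 4075, 3674 and 3595 (limma adjusted p = 0.87, 0.83 and 0.81). These non-members were chosen for mention after their values were seen.

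Transport proteins came next. LHT2, an amino acid transporter of the lysine and histidine transporter family, had 1180, 1231 and 892 in NOT1+/-, against 7.06, 10.1 and 33.2 in wild type. Wild-type replicate 3 stood 3 to 5 times above its sister arrays, and the lowest NOT1+/- value was still 26.8 times higher. AAP5, an amino acid permease, had 320, 369 and 284 in NOT1+/-, against 15.3, 15.8 and 15.1 in wild type. The other 7 were NHX3, a sodium and proton exchanger, PHT1;7, a phosphate transporter, SULTR1;3, a sulfate transporter, YSL7, of a metal and peptide transporter family, GPT1, which carries glucose 6-phosphate into plastids, ATOEP16-2, a channel protein of the plastid outer envelope, and ABCI21, a soluble protein of the ABC class. Their arrays ran from 115 to 368 in NOT1+/- and from 5.77 to 18.3 in wild type, with folds of 16.2 to 37.3. Relatives outside the set varied. The counts of rises that follow stand beside 8.84% of all features called higher, and they include the members. Among 12 genes with an LHT or AAP symbol or synonym, LHT2 and AAP5 rose, 0 fell and 10 did not pass. Relatives known here by locus code alone are not in this or the other family counts. LHT7 had 1127, 1232 and 1222 in NOT1+/-, against 1088, 1153 and 1237 in wild type (limma adjusted p = 0.89). PHT1;7 was the 1 of 9 PHT1 genes to rise. Of 12 SULTR genes 2 rose and 1 fell, and SULTR3;5 was the other rise, with a mean of 116 in NOT1+/- and 16.0 in wild type (limma adjusted p = 2.41e-04). Of 39 CHX, NHX and KEA cation exchangers 12 rose (30.8%, beside 8.84% of all features) and 4 fell. Of the 38 outside the set, 11 rose. After quantile normalization 8 of the 39 rose and 6 fell. CHX23 had a mean of 1826 in NOT1+/- and 1701 in wild type (limma adjusted p = 0.72). Whether LHT2 and LHT7, or the exchangers, changed by different amounts was not tested as a difference between genes.

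**Figure D3:**
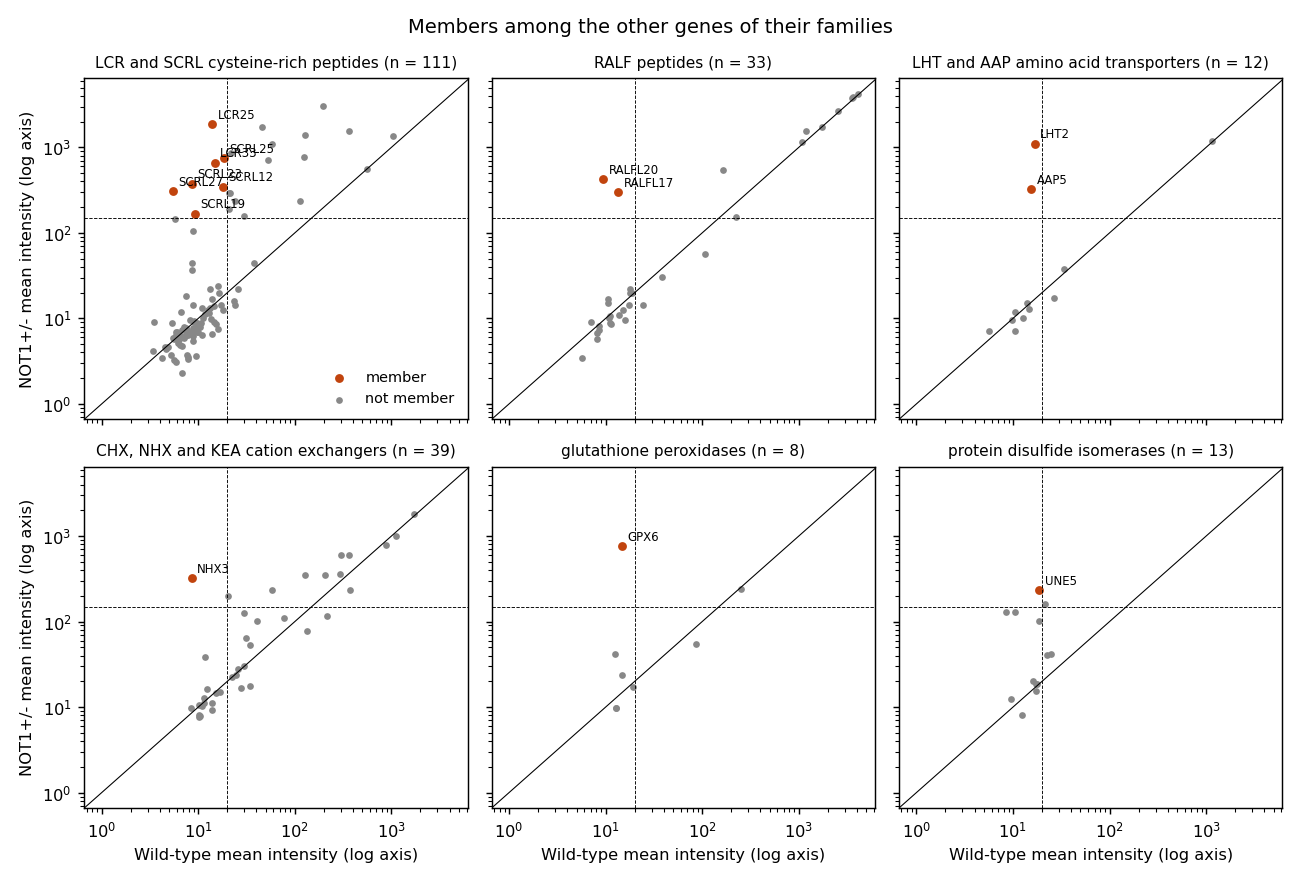
NOT1+/- mean intensity against wild-type mean intensity (log axes, 3 arrays each) for all measured genes found by name in 6 families. Red labelled points are members of the set and grey points the rest of each family. The dashed lines are the limits of 150 and 20, and the diagonal marks equal means. In the RALF panel and in the panel of LHT and AAP genes most grey points lie near the diagonal.

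Of the set, 7 genes encode proteins that fold or export secretory cargo. SHD, the HSP90 chaperone of the ER, had 340, 320 and 217 in NOT1+/-, against 8.04, 9.87 and 8.85 in wild type. CNX1, calnexin, which retains unfinished glycoproteins, had 206, 209 and 139 in NOT1+/- and 13.8, 17.6 and 11.8 in wild type. SDF2, an ER protein of the folding quality check, had 191, 190.3 and 135 in NOT1+/- and 17.2, 16.8 and 15.8 in wild type. UNE5, a protein disulfide isomerase, FKBP15-1, an immunophilin, AT1G18830, with the synonym SEC31A for a coat protein of ER export vesicles, and RAB1C, a GTPase of traffic from the ER to the Golgi, had folds of 12.3, 13.9, 13.3 and 24.2. The lists for their families also held rises outside the set, to be read beside the 8.84% of all features called higher. The shares of whole lists include the members, which the rule chose for their rise. Of 10 BiP, GRP94, calnexin, calreticulin and SDF2 genes 8 rose (80%) and 0 fell. Of the 7 outside the set, 5 rose. CRT1a, a calreticulin, had a mean of 104 in NOT1+/- and 6.84 in wild type (limma adjusted p = 6.74e-05), so it met the wild-type limit and not the upper one. Of 13 protein disulfide isomerases 6 rose (46.2%; 5 of the 12 outside the set among them) and 0 fell. After quantile normalization or centring on the 75th percentile 5 of the 13 rose. Among the rises were PDIL2-3 with means of 129 and 10.46 and PDIL1-6 with 129 and 8.53 in NOT1+/- and wild type. Of 54 RAB GTPases 8 rose (14.8%, 7 of the 53 outside the set among them) and 1 fell, and after quantile normalization 7 were higher and 10 lower.

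The redox enzymes act on peroxides, glutathione and oxidised methionine. GPX6, a glutathione peroxidase, had 837, 801 and 633 in NOT1+/-, against 16.5, 15.0 and 12.9 in wild type (51.0-fold). PMSR1, a methionine sulfoxide reductase, had 417, 393 and 315 in NOT1+/-, against 12.0, 8.73 and 17.8 in wild type. GR1, a glutathione reductase, and GSTT1, a glutathione transferase, had folds of 17.6 and 17.05. GPX4, of the same family, had a mean of 241 in NOT1+/- and 250.4 in wild type (limma adjusted p = 0.86), and its difference from GPX6 was not tested. Of the family, 2 of 8 GPX genes rose and 1 fell. Over all features 8.84% were called higher and 3.22% lower.

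Cell wall genes of the set were PMEI2, an inhibitor of pectin methylesterases, MAN7, an endo-mannanase, FLA14, a fasciclin-like arabinogalactan protein, POM1, a chitinase-like protein tied to cellulose, and UGD3, which makes the UDP-glucuronate used for pectin and hemicellulose. PMEI2 had 345, 295 and 213 in NOT1+/-, against 14.6, 19.3 and 17.6 in wild type. MAN7 had 282, 261 and 207 in NOT1+/-, against 5.17, 4.56 and 6.47 in wild type. UGD3 had the smallest log2 fold change of the set (3.00, SE 0.20). The other UDP-glucose dehydrogenases also rose: UGD1 had 30.4 in NOT1+/- and 10.4 in wild type, and UGD2 48.9 and 16.6 (limma adjusted p = 6.77e-04 and 0.0039). Of 50 FLA and AGP genes 2 rose (4%) and 1 fell, with 3 falls after quantile normalization or centring on the 75th percentile. Over all features 8.84% were called higher and 3.22% lower. Of 20 genes named as pectin methylesterases or their inhibitors 2 rose (10%) and 0 fell. Such genes known here by locus code alone were not counted. PMEI1 had a mean of 1710 in NOT1+/- and 1570 in wild type (limma adjusted p = 0.67).

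Among nuclear proteins, AGL94 is a MADS-box factor of the pollen MIKC* class, whose members pair with each other and activate late pollen genes. It had 558, 494 and 383 in NOT1+/-, against 12.5, 8.53 and 10.98 in wild type. Its class relatives AGL66, AGL65 and AGL104 rose from a clear wild-type signal, with log2 fold changes of 1.87 (SE 0.16), 1.69 (SE 0.15) and 1.61 (SE 0.17) and limma adjusted p of 1.67e-04, 1.95e-04 and 6.10e-04. LBD27, known as SIDECAR POLLEN and needed for the division pattern of microspores, had 306, 301 and 177 in NOT1+/-, against 17.5, 14.6 and 11.2 in wild type. It was the 1 rise among 40 LBD genes (2.5%, beside 8.84% of all features). LBD10 had a mean of 135 in NOT1+/- and 134 in wild type (adjusted p = 0.99). The remaining members of the group were TRFL2, a relative of telomere repeat binding factors, HD2B, a histone deacetylase of a plant type, TAFII21, a subunit of the general factor TFIID, ATSUV3, named as a homologue of an RNA helicase of mitochondria, and LOS1, a translation elongation factor. Over all 7, single arrays ran from 106 to 558 in NOT1+/- and from 8.53 to 24.1 in wild type. LOS1 had the narrowest gap of the set, with 190.4, 204 and 106 in NOT1+/- and 15.0, 20.4 and 24.1 in wild type. Of the families searched, MYB (125 genes), WRKY (71), cytochrome P450 (250), UMAMIT (44), STP, SUC and SWEET (36) and PSK and CLE genes (36) had 0 members. Members were 108 of 27827 features, a share at which lists of these sizes can hold 0, so nothing is read from it. In the same order, limma called 0, 1, 2, 0, 4 and 1 of their genes higher and 3, 2, 2, 2, 1 and 2 lower. Over all features 8.84% were called higher and 3.22% lower.

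The 11 genes with other names had folds of 8.62 to 56.9. BCA3, a beta carbonic anhydrase, which interconverts carbon dioxide and bicarbonate, had 977, 945 and 707 in NOT1+/-, against 16.8, 12.3 and 17.2 in wild type. It was the 1 of 4 BCA genes to rise, beside 8.84% of all features. ASP1, an aspartate aminotransferase, OMT1, an O-methyltransferase, and BGLU40, a beta-glucosidase, are further enzymes, with folds of 13.7, 24.97 and 14.3. SPX2, of a family that senses phosphate status, had a mean of 202 ± 32.8 in NOT1+/- and 16.8 ± 6.52 in wild type (SD, n = 3 arrays each). MOB1-like, related to a kinase activator, SKIP1, a partner of the ubiquitin ligase subunit SKP1, and AT4G16500, a cystatin that inhibits cysteine proteases, had folds of 16.5, 10.2 and 8.62. PRSL1, PLAT1 and COR413-PM2 had 37.7, 13.7 and 12.6.

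The 56 genes known here by locus code alone included several with high NOT1+/- signal. AT1G47980 had 2121, 2021 and 1656 in NOT1+/-, against 10.7, 13.0 and 10.8 in wild type, where its mean lay below the mean of the array medians. AT4G02140 had 1695, 1576 and 1467 in NOT1+/-, against 19.0, 20.5 and 14.3 in wild type. AT1G66360 had 1109, 1050.1 and 774 in NOT1+/-, against 18.1, 15.5 and 25.7 in wild type. All 3 reached high signal on every NOT1+/- array. AT4G10603, AT3G29040, AT1G54620 and AT5G46940 had NOT1+/- means of 908 ± 89.1, 892 ± 169.6, 862 ± 67.2 and 765 ± 76.5, against wild-type means of 18.3 ± 1.73, 15.6 ± 2.22, 16.2 ± 4.69 and 11.2 ± 3.00 (SD, n = 3 arrays each). AT1G04670 had 788, 765 and 644 in NOT1+/- and 7.88, 11.5 and 8.45 in wild type. Over all 56 such genes, NOT1+/- arrays ran from 110.3 to 2121 and wild-type arrays from 2.62 to 25.7.

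Members were spread over the 5 nuclear chromosomes, with 27, 17, 23, 17 and 24 on chromosomes 1 to 5, or 0.375% to 0.415% of each chromosome's features. Of these, 6 members lay close together on chromosome 3. In order of locus code they were AT3G21910, AT3G21930, AT3G21970, AT3G21990, AT3G22040 and AT3G22053, and 17 features cover the stretch from the first to the last. No other part of the genome held 3 or more members separated by at most 10 features, and 3 further pairs did. The stretch was singled out after the values were seen. AT3G21930 had 632, 627 and 536 in NOT1+/-, against 14.8, 13.6 and 8.91 in wild type. AT3G21910 had 438, 472 and 336 in NOT1+/-, against 11.4, 8.86 and 13.7 in wild type. AT3G21970 had 371, 329 and 255 in NOT1+/-, against 8.60, 7.40 and 6.82 in wild type. The groups are far apart in all 3.

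Between these members, 11 features did not meet the rule, and limma called 6 of them higher, 0 lower and 5 in neither direction. AT3G21960 had 114, 121 and 94.6 in NOT1+/-, against 5.25, 5.34 and 7.27 in wild type (18.6-fold). AT3G22000, AT3G22030, AT3G21945, AT3G22050 and AT3G22020 rose 11.6-fold, 4.85-fold, 3.62-fold, 3.46-fold and 2.12-fold. AT3G21940, AT3G21950, AT3G21980, AT3G22010 and AT3G22022 had log2 fold changes of 0.41, 0.19, 0.31, 0.37 and -0.24 and did not pass. Features with a large change thus alternated with neighbours whose values overlapped between genotypes. The changed features went on at the low end, where AT3G21900, BBX31 (AT3G21890) and BBX10 (AT3G21880), both B-box proteins, and PEX22 (AT3G21865), named for a factor of peroxisome formation, rose 8.53-fold, 11.1-fold, 21.2-fold and 11.2-fold. Between BBX10 and PEX22, CYCP2;1 (AT3G21870), a cyclin, had a mean of 23.2 in NOT1+/- and 27.3 in wild type. At the high end AT3G22057 rose 8.07-fold and the next 4 features did not pass. All 12 calls within the stretch were also made under each of the 3 rescalings of the arrays and with any 1 array left out. Whether probes of these neighbouring loci share sequence was not examined.

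**Figure D4:**
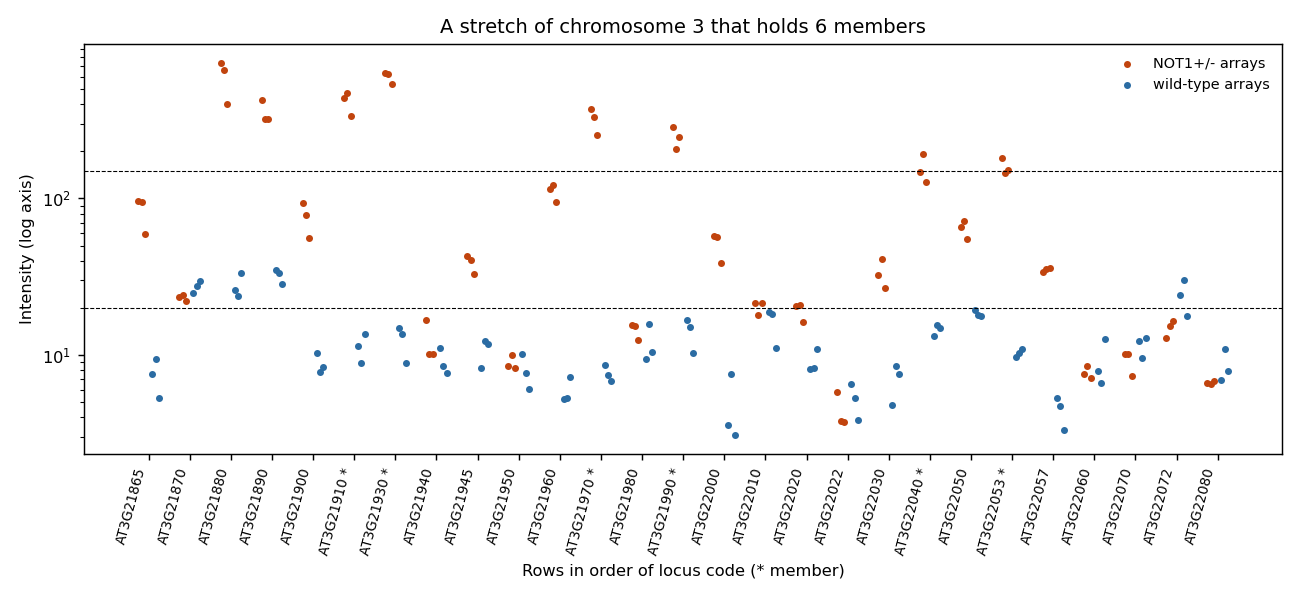
Intensity (log axis) of 27 consecutive features of chromosome 3, in order of locus code, with 3 NOT1+/- arrays in red left of 3 wild-type arrays in blue. Stars mark the 6 members and dashed lines the limits of 150 and 20. Features far above their wild-type level alternate with features whose colours overlap.

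The rise had the same direction on every array, which the rule by itself makes likely, and was uneven in size. Of the 108 genes, 67 passed both limits on every array, 83 had all 3 NOT1+/- arrays above 150 and 87 had all 3 wild-type arrays below 20. The coefficient of variation between NOT1+/- arrays ran from 2.18% to 32.0%, with a median of 16.5%. NOT1+/- replicate 3 was the lowest of its group in 101 genes, replicate 2 in 7 (AT2G16535, RALFL20, AT2G22807, AT2G45600, AT3G21990, SCRL19 and AT3G22053) and replicate 1 in 0. The median of replicate 3 over the mean of replicates 1 and 2 was 0.75 over the set. Among 461 other features above 150 in NOT1+/- that were called at least 2-fold higher, replicate 3 was lowest in 83.1% and the ratio was 0.840. Among 1147 features above 150 in both genotypes it was lowest in 28.9% and the ratio was 1.04. The lower values of replicate 3 thus went with features that were higher in NOT1+/- and not with bright features at large. The sum over the 8 sperm markers, by contrast, was highest on that array, and bright genes weigh most in such a sum. Whether that and the lower member values are linked was not tested.

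The size of the shortfall on replicate 3 differed between groups of genes. The ratio had a median of 0.672 over the 7 ER genes (0.658 to 0.870), 0.704 over the 7 nuclear, RNA and translation genes, 0.729 over the 9 transport genes and 0.930 over the 9 secreted peptides (0.718 to 1.11). SCRL19, RALFL20, SCRL23, SCRL12 and SCRL27 had 1.11, 1.02, 0.967, 0.966 and 0.930, while LBD27 had 0.583 and LOS1 0.535. The groups are small and were formed after the values were seen, so these medians are a description of 3 arrays.

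**Figure D5:**
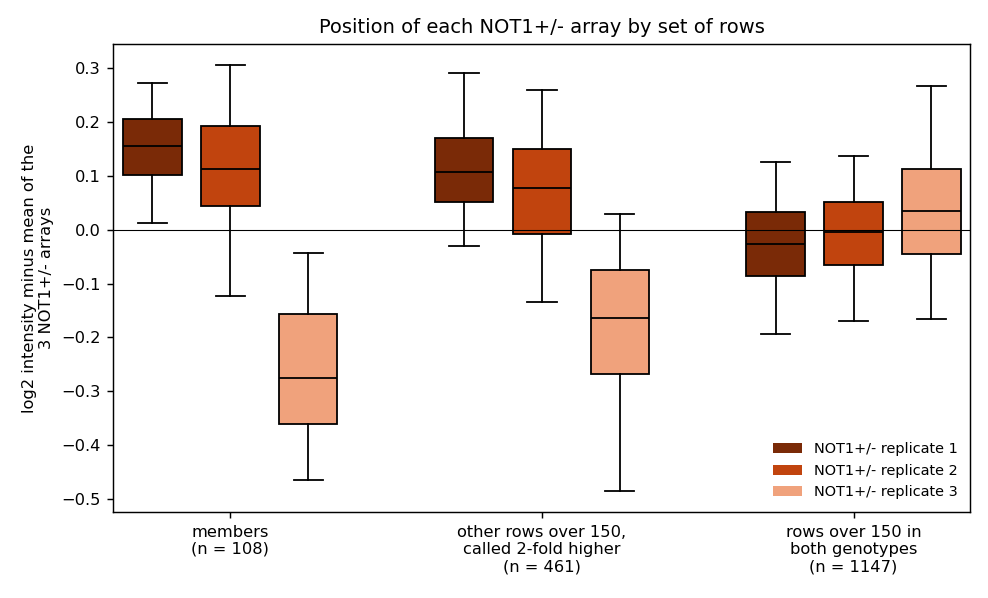
Log2 intensity on each NOT1+/- array minus the mean of the 3 NOT1+/- arrays, for the 108 members, 461 other features above 150 in NOT1+/- called at least 2-fold higher, and 1147 features above 150 in both genotypes. Boxes are quartiles with the median as a line, and whiskers span the 5th to the 95th percentile of features. Replicate 3 sits at a median of -0.28 in the members, -0.16 in the second set and 0.04 in the last.

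The order of the members by level repeated well between NOT1+/- arrays, with Pearson correlations of log2 values across the 108 genes of 0.958 to 0.980. Between wild-type arrays they were 0.574 to 0.738, and between an array of each genotype -0.014 to 0.118. Genes are not independent replicates, and the rule confined wild-type means to a narrow band, so these values describe the arrays only. The widest wild-type spreads were in AT2G07698, with 20.01, 6.65 and 3.36, in LHT2 and in AT3G60520, with 5.81, 10.6 and 2.62. On NOT1+/- arrays AT2G07698 had 206, 147 and 136, and AT3G60520 had 387, 413 and 304, clear of these values.

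The rise was also read on arrays that had no part in the choice. The rule was applied to 2 arrays of each genotype and the values on the remaining pair were read, for all 9 such pairs. Between 96 and 123 genes were chosen, and in every case all of them were higher on the left-out NOT1+/- array than on the left-out wild-type array. The share that also met both limits on the left-out pair ran from 85.1% to 92.7% where NOT1+/- replicate 1 or 2 was left out, and from 62.5% to 66.4% where replicate 3 was. The median log2 ratio of the left-out pair was 4.41 to 4.64 where replicate 1 or 2 was left out and 3.92 to 3.99 where replicate 3 was, beside -0.12 to -0.02 over all features. The 9 pairs share arrays and are not independent of each other. A wide gap on the arrays that chose the genes makes a rise on the left-out pair likely, so these counts are a description.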

How the data were processed

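Mature pollen was profiled on 6 arrays, 3 per genotype. The deposited table gives a linear intensity per locus and array. The authors used Affymetrix Expression Console, per the submitters' processing notes, and the version, background correction, probe summarisation and array scaling were not given in the sources used here. Intensities began at 1 and array medians lay between 12.0 and 13.1. Without scan or strip information no batch was examined. Precision is limited by the number of arrays, and p-values measure the spread between these samples.

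Members were taken by arithmetic means below 20 (wild type) and above 150 (NOT1+/-). Log2 intensities of all features were fitted by limma (3.58.1, R 4.3.3; NOT1+/- minus wild type), checked on simulated data, with Benjamini-Hochberg adjustment over 27827 features and calls at an adjusted p under 0.05. Folds compare geometric means, while group levels are arithmetic means. Names came from a RefSeq gene table (TAIR10.1), which matched 27241 features. It was used for names only, since the build of the files is not stated, and gene order is that of locus codes. Families were found by symbol and synonym patterns (38 lists), which miss genes without a symbol. The members and lists were chosen with earlier results of these data known. Genes were named by rule (the 12 highest NOT1+/- means, the 6 largest log2 fold changes, up to 4 members per family with 2 or more, the 3 widest wild-type spreads and the 2 features on each side of each limit), while any other gene was picked with its values in view.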

Additional observations from a re-analysis of the deposited data

How the results depend on the processing

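The number of genes that meet the rule was 48 with limits of 15 and 200, 230 with limits of 25 and 100, and 67 when every array had to pass, against 108. It was 87 after quantile normalization, all 87 among the 108, and 100 to 122 when 1 array was left out. The median log2 fold change of the members, 4.35, became 3.19 with 16 units added before log2 and 4.10 after quantile normalization, and was 4.25 to 4.48 without 1 array. It stayed at 4.35 without the chromosome 3 stretch, an alternative chosen after the data were seen. An unequal-variance test per feature called 102 members and 1229 features higher, against 108 and 2461 with limma; of the named members, LHT2, AT2G07698 and AT3G60520 then lost their calls (adjusted p 0.093, 0.158 and 0.082). Of 416 fold changes of named members under an alternative, 413 kept their call and 0 changed direction. The alternatives refit the same arrays that chose the members, which makes this likely, so nothing is read from these counts. Replicate numbers are shared between genotypes, but same-numbered arrays did not all deviate together (r = 0.114, 0.133 and -0.013), so they were not treated as pairs, and with the replicate block 2163 features and 108 members were called higher. The planned comparison of members with their nearest paralogues by protein identity was not run. Wild-type levels near the array medians limit the size of every fold.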

Other observations

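The genes next to members in locus order were read as well. Outside the chromosome 3 stretch, 202 features directly flank a member without meeting the rule. Of these, 23 were called higher in NOT1+/- (11.4%, beside 8.84% of all features), and their median log2 fold change was -0.04, beside -0.10 over all features.

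The 108 members held 2.64%, 2.57% and 2.08% of the summed intensity on NOT1+/- arrays 1, 2 and 3, against 0.109%, 0.109% and 0.112% on wild-type arrays 1, 2 and 3.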
